A study of Homo sapiens with 6 samples.

Results

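The genes described here were the cancer-testis genes of SKOV3 ovarian cancer cells: MAGE family members, PRAME and a set of germ-line and meiosis genes. They were picked by gene symbol. The rule itself used no measured value, but it was chosen with earlier results of these data known. A protein-coding gene of the deposited table was a member when its symbol began with MAGE, GAGE, PAGE, XAGE, SSX and a digit, CTAG, CT45, CSAG or SPANX, or was 1 of 11 names given in full. This gave 30 members of 29185 genes, of which 16074 were protein coding. Of the 11 names, PRAME, SYCP2, TEX14, TEX15, DDX43, ACRBP and LIN28A had a row, and the other 4 (BRDT, SYCP1, TDRD1 and CTCFL) were not analysed here. The members fell into 6 MAGE type I genes, 6 MAGE type II genes, 6 CTAGE genes, 2 PAGE genes, 1 gene each from CSAG and SPANX, PRAME, 6 germ-line and meiosis genes, and SSX2IP. The symbol SSX2IP denotes a protein that interacts with SSX2, so this gene is not itself an SSX antigen. The CTAGE genes were included because their symbols start with the letters of the CTAG family. Of the 30 members, 15 lay on chromosome X and 15 elsewhere.

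Polyadenylated RNA was sequenced from SKOV3, a line established from a human ovarian tumour, in 2 groups of 3 libraries. The sh-KLF5 cells carried a pLKO.1-EGFP-Puro vector against KLF5, a zinc finger transcription factor of the Krüppel-like family, and were kept as a stable line with 1 construct. The sh-NC cells were the controls, whose genotype the labels give as WT. With 1 construct, an effect of KLF5 loss cannot be told apart from other effects of that construct or other differences between the lines. Nothing in the labels says that the 3 libraries of a group came from separate cultures, so the p-values measure the spread between these libraries, which may be technical.

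Cancer-testis genes are transcribed mainly in male germ cells and are silent in most adult tissues, yet many tumours express them again, and their products are then antigens for T cells. In normal somatic tissue many of their promoters are held silent by DNA methylation. MAGE proteins share the MAGE homology domain, through which they bind E3 ubiquitin ligases and steer their activity. Type I MAGE genes (MAGEA, MAGEB and MAGEC) lie on the X chromosome and are restricted to germ cells and tumours, whereas type II genes, such as the MAGED subfamily, are expressed in many normal tissues. PRAME is a leucine-rich repeat protein that serves as a substrate receptor of a cullin-2 ligase and represses retinoic acid receptor signalling.

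The values given below are normalized counts, that is reads per gene divided by 1 factor per library, and reads, which were recovered from them. The 6 libraries held 15852319 to 17543896 reads, and a count of 0 allows up to 3 reads, or 0.171 to 0.189 CPM (counts relative to library size), for counting error only. Pairs of libraries of the same group differed by more than sampling noise. The chi-square for each degree of freedom was 4.33 to 8.41 for sh-NC pairs and 10.4 to 30.4 for sh-KLF5 pairs. The 2 pairs with sh-KLF5 replicate 1 were the highest, at 23.5 and 30.4. KLF5, the silenced gene, stood at 4371, 4425 and 4494 normalized counts in the sh-NC libraries and at 1745, 1440 and 1436 in the sh-KLF5 libraries. All sh-KLF5 values lay below all sh-NC values, and the log2 fold change was -1.53 (SE 0.12, limma, adjusted p = 2.47e-07), which left 34.8% of the sh-NC level.

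Of the 30 members, 15 had enough reads for a test and 15 did not. After KLF5 silencing PRAME, MAGED1 and TEX15 fell, each to a few percent of its sh-NC level or less, MAGEB6 rose, and the other 11 tested members did not pass. A gene passed when its Benjamini-Hochberg adjusted p-value over 15803 tested genes was under 0.05 and its log2 fold change was above 1 or below -1. Thus 3 tested members were called lower, beside 3.37% of all tested genes, and 1 was called higher, beside 1.9%. Among the tested members the same 4 were those whose groups did not overlap, beside 31.3% of all tested genes. MAGEE1 and MAGEH1, which were not tested, did not overlap either. Each of the 4 passed the read filter through the group in which it was high, so these counts describe the members and lend them no support as a group. The median log2 fold change of the 15 tested members was 0.06, against -0.0023 over all tested genes. By point estimate the called member nearest to the fold threshold was MAGEB6 at 2.52 and the nearest member not called was MAGEB17 at 0.66.

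**Figure D1:**
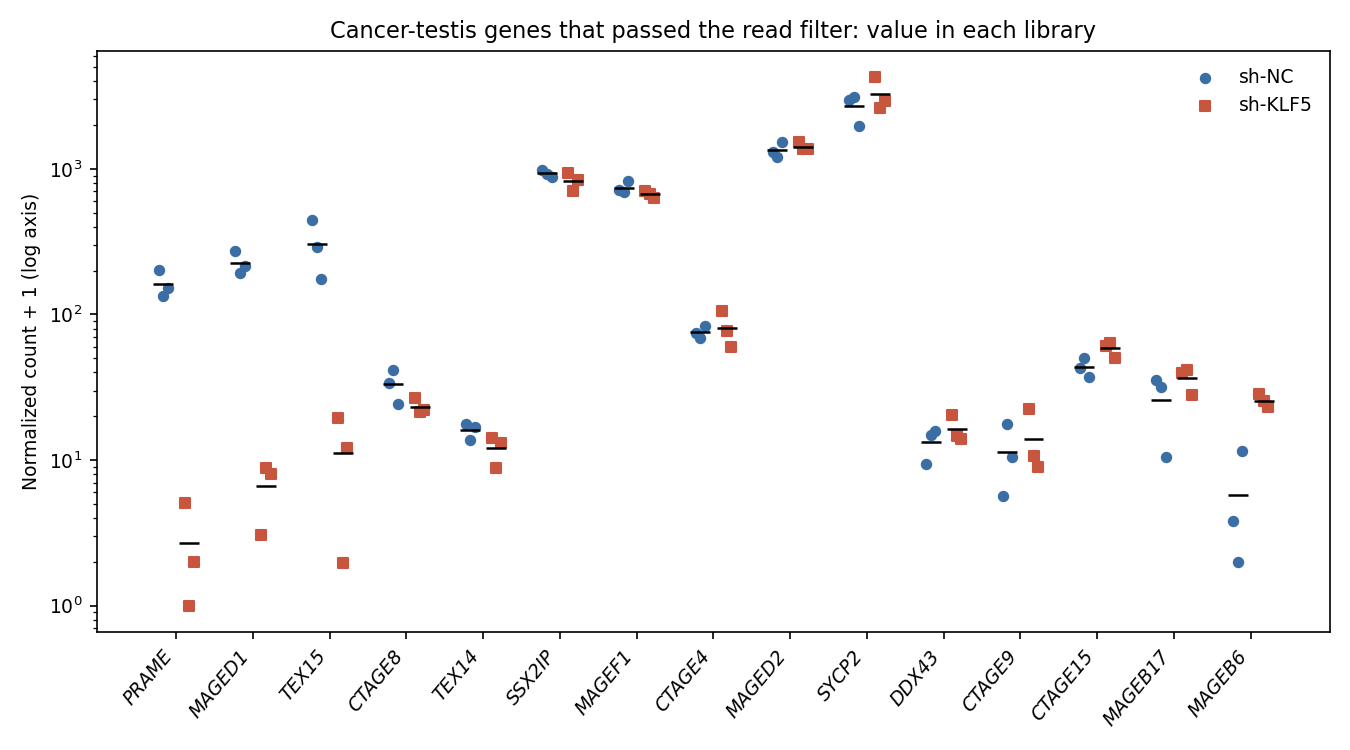
Normalized count plus 1 (log axis) of the 15 tested members in each sh-NC library (circles) and each sh-KLF5 library (squares), with the group mean as a bar, ordered by fold change. The groups separate for PRAME, MAGED1, TEX15 and MAGEB6 and overlap for the other 11.

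PRAME (ENSG00000185686, minus strand, chr22:22547701-22559361 on GRCh38) was expressed in every control library and was close to 0 after silencing. PRAME reads numbered 216, 134 and 143 without silencing and 4, 0 and 1 with it. In normalized counts these were 201.1, 132.0 and 151.7 against 4.08, 0 and about 1, so that the lowest control library stood far above the highest silenced one. The mean went from 161.6 ± 35.6 to 1.69 ± 2.12 (SD, n = 3 each), which left 1.05% of the control level. The log2 fold change was -6.21 (SE 0.50, 95% confidence interval -7.28 to -5.14, limma, adjusted p = 4.61e-07), the second largest fall among all tested genes by rank. With so few reads in sh-KLF5 the size of this fold depends on the pseudocount, and it ran from -4.66 with a pseudocount of 5 to -7.69 with 0.1. Without sh-KLF5 replicate 1, which held 4 of the reads, it was -6.82. The exact two-sided permutation test over the 6 libraries gave p = 0.1, the smallest value that 3 against 3 libraries allow.

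MAGED1 (ENSG00000179222, plus strand, chrX:51803007-51902357), a type II MAGE protein that binds the p75 neurotrophin receptor and takes part in apoptosis, was the other member of the ligase-binding families to fall. Its reads were 294, 193 and 201 in sh-NC and 2, 8 and 7 in sh-KLF5. The normalized counts were 273.7, 190.2 and 213.3 against 2.04, 7.76 and 7.02, again with no overlap. The mean went from 225.7 ± 43.2 to 5.61 ± 3.11 (SD, n = 3 each), which is 2.48% of the control level. The log2 fold change was -5.23 (SE 0.37, 95% confidence interval -6.02 to -4.44, limma, adjusted p = 1.36e-07).

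The other type II genes that were tested did not pass. MAGED2, which lies on the same chromosome and is known for its part in renal salt transport before birth, had 1303, 1213 and 1529 normalized counts in sh-NC and 1531, 1361 and 1363 in sh-KLF5. These groups overlapped, with a log2 fold change of 0.08 (95% confidence interval -0.18 to 0.33, limma, adjusted p = 0.735). MAGEF1, an intronless gene on chromosome 3 whose protein acts with a ligase on a factor of iron-sulphur cluster assembly, had 716.9, 687.8 and 825.5 against 706.3, 668.5 and 631.7 normalized counts. Its log2 fold change was -0.15 (95% confidence interval -0.41 to 0.11, limma, adjusted p = 0.480). For both genes the interval lay within a change of 1 on the log2 scale in either direction.

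MAGEE1 (ENSG00000198934, chrX:76427724-76431353), a type II gene whose protein associates with dystrobrevin, was below the read filter. It had 14, 10 and 5 reads in sh-NC against 0 reads in every library of sh-KLF5. Taken against 3 reads per library, its normalized count was at least 3.14-fold lower in sh-KLF5. This bound rests in part on single control libraries: it was 2.53-fold without sh-NC replicate 1 and 3.83-fold without sh-NC replicate 3. With no read filter MAGEE1 was called lower (limma, adjusted p = 4.32e-04). Adjusted p-values of that fit cannot be set beside those of the filtered fit: KLF5 had 2.75e-31 in it, against 2.47e-07 (limma). MAGEE1 was also called lower in 3 of the 6 fits that left out 1 library. In the rest of those 6 fits MAGEE1 was below the read filter and was not tested. Where it passed the filter, it did so through its sh-NC reads alone. MAGEH1 had 4, 6 and 2 reads in sh-NC and 0, 0 and 1 in sh-KLF5, and MAGED4 had at most 3 reads in any library. The exact two-sided permutation test gave p = 0.1 for MAGEE1 and for MAGEH1.

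Among the type I genes MAGEB6 (ENSG00000176746, plus strand, chrX:26192440-26195646) was the member that rose. It had 3, 1 and 10 reads in sh-NC and 27, 25 and 22 in sh-KLF5. The normalized counts were 2.79, 0.985 and 10.6 against 27.5, 24.3 and 22.1, so every silenced library lay above every control library, though both groups were low. The mean rose 5.13-fold, from 4.80 ± 5.12 to 24.6 ± 2.75 (SD, n = 3 each), with a log2 fold change of 2.52 (SE 0.59, 95% confidence interval 1.27 to 3.77, limma, adjusted p = 0.00862). The third control library was the highest of its group. Without that library the log2 fold change was 3.22, and without sh-NC replicate 2 it was 1.94 (limma, adjusted p = 0.0397). Without sh-KLF5 replicate 2 the adjusted p was 0.0461 (limma), close to the threshold. The log2 fold change also depended on the pseudocount, at 1.71 with 5 and 2.93 with 0.1.

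MAGEB17, a relative of MAGEB6 on the same chromosome, had 34.4, 30.5 and 9.55 normalized counts in sh-NC and 38.7, 40.8 and 27.1 in sh-KLF5. These groups overlapped (log2 fold change 0.66, 95% confidence interval -0.23 to 1.55, limma, adjusted p = 0.348). The value was 0.98 without sh-NC replicate 1 and 0.11 without sh-NC replicate 3, and was not called in either. The coding sequences of the pair were identical at 53.6% of aligned positions. An antisense gene, AC078993.1, with 11 to 44 reads, covers 25.8% of the exonic bases of MAGEB17, and its reads cannot be told apart from those of MAGEB17 because the strand setting of the counting is not given in the sources used here. MAGEB2 had 0, 4 and 3 reads against 2, 0 and 1, and MAGEA12, MAGEC1 and MAGEB18 had at most 6 reads in any library.

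**Figure D2:**
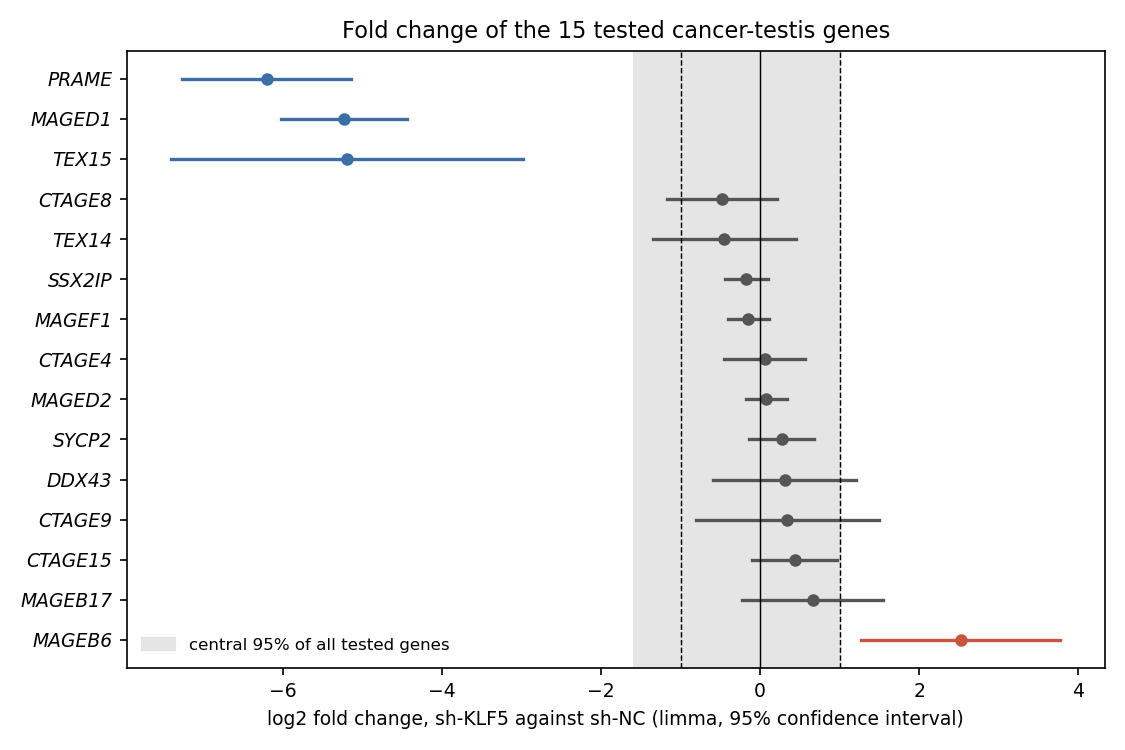
Log2 fold change of sh-KLF5 against sh-NC with its 95% confidence interval from limma for the 15 tested members. Dashed lines mark the fold threshold and the grey band holds the central 95% of all tested genes (-1.59 to 1.01); PRAME, MAGED1 and TEX15 lie to its left and MAGEB6 to its right.

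The promoters of the called members PRAME, MAGED1 and MAGEB6 are shown because KLF proteins are known to bind GC boxes and CACCC boxes. RefSeq windows on GRCh38.p14 from 250 bases before to 50 bases after each annotated start were searched on both strands for the GC box GGGCGG, the CACCC box CCACCC and the ETS core CCGGAAG. Over all 35116 windows, 44.95% held a GC box, 34.3% a CACCC box and 10.3% an ETS core. A window was at hand for 24 of the 30 members, and not for TEX15, TEX14, MAGEB17, MAGEH1, ACRBP and LIN28A. PRAME had 3 windows, of which the first held none of the motifs, the second held 2 GC boxes and the third held 1 CACCC box. The second window of MAGED1 held 1 GC box and 2 CACCC boxes, and its first held 1 ETS core, not wholly upstream of the start. The single window of MAGEB6 held 1 ETS core. The bases upstream of the start are printed 5′ to 3′ on the strand of the gene, with motif matches on either strand in capitals.
PRAME, start 2, chr22:22557633-22557882, minus strand: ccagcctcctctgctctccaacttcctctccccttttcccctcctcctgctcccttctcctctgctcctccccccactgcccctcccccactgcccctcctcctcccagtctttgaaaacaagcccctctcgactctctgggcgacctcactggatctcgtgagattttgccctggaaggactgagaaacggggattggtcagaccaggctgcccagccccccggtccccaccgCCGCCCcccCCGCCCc
PRAME, start 3, chr22:22554183-22554432, minus strand: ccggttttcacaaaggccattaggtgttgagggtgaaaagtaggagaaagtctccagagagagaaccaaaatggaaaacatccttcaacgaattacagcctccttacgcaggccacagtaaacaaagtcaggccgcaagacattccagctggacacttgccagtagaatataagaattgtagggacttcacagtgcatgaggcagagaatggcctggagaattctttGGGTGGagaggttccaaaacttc
MAGED1, start 2, chrX:51893373-51893622, plus strand: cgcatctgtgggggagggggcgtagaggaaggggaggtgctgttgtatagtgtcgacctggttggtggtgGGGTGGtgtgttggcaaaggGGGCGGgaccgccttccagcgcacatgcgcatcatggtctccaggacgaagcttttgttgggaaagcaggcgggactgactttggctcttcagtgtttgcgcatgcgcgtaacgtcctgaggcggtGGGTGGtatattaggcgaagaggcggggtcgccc
MAGEB6, chrX:26192190-26192439, plus strand: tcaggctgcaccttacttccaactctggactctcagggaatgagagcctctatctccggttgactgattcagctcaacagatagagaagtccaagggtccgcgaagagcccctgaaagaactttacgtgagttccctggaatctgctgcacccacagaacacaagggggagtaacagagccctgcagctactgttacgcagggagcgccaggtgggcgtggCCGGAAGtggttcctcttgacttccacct

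Motif matches were also found in members that did not pass. MAGED2, which did not pass, held 1 GC box and 2 CACCC boxes in its first window, SYCP2 held 2 GC boxes and SSX2IP held 3. MAGEE1, which was below the read filter and so not tested, held 3 GC boxes. CpG dinucleotides, the sites at which promoters of this class are methylated, numbered 13, 12 and 4 in the windows of PRAME, 10 and 20 in those of MAGED1 and 11 in that of MAGEB6, against a median of 14 over all windows. Of the tested members that did not pass and had a window, SYCP2 and SSX2IP held the most, at 41 and 32. MAGED2 held 10 and 11 in its 2 windows, and the rest held from 16 (CTAGE9) to 21 (MAGEF1 and DDX43). A match is only a run of letters, and neither binding nor methylation was measured in these libraries.

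The CTAGE genes, relatives of an endoplasmic reticulum exit protein, showed no change that passed. All 4 tested CTAGE genes had overlapping groups. The log2 fold changes were -0.48 for CTAGE8, 0.06 for CTAGE4, 0.34 for CTAGE9 and 0.43 for CTAGE15, with limma adjusted p-values from 0.307 to 0.917. Reads of CTAGE4 were 79, 69 and 78 in sh-NC and 102, 78 and 59 in sh-KLF5. CTAGE6 had 8, 5 and 4 reads against 3, 4 and 5, and CTAGE1 at most 2 in a library. The values of single CTAGE genes are uncertain, since they are near-identical copies: the coding sequences of CTAGE4 and CTAGE8 were identical at 99.8% of positions, and from 69.3% (CTAGE9) to 98.0% (CTAGE8) of the 100-base words in the transcripts of 5 CTAGE genes also occurred in another gene.

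Among the members as a whole, 11 shared at least one 100-base word with another gene and 7 shared more than 50% of their words, the other such genes being MAGED4 and CSAG3. PRAME, MAGED1, TEX15 and MAGEE1 shared none. MAGEB6 shared 5.89% of its words with MAGEB6B. The words came from 1 transcript per member, which for MAGED1 had 2875 bases of the 6016 exonic bases over which reads were counted. The coding sequence of MAGED1 was identical to that of MAGED2 at 47.8% of aligned positions.

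The germ-line and meiosis genes held the remaining member that fell. TEX15 (ENSG00000133863, minus strand, chr8:30831544-30913003) is required in male germ cells for meiotic recombination and for silencing of transposons. It had 474, 293 and 165 reads in sh-NC and 18, 1 and 11 in sh-KLF5. The normalized counts were 441.3, 288.7 and 175.1 against 18.3, 0.970 and 11.0, without overlap but with a wide spread in both groups. The mean went from 301.7 ± 133.6 to 10.1 ± 8.72 (SD, n = 3 each), or 3.35% of the control level. The log2 fold change was -5.20 (SE 0.90, 95% confidence interval -7.40 to -2.99, limma, adjusted p = 0.0152). The size of the fall rested in part on single libraries: it was -4.21 without sh-KLF5 replicate 2 and -5.86 without sh-KLF5 replicate 1, and -4.46 with a pseudocount of 5. Without the read filter the adjusted p from limma was 0.0777, above the threshold.

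SYCP2, a lateral element of the synaptonemal complex that joins paired chromosomes in meiosis, was the most abundant member by normalized count and kept a high level. It stood at 2992, 3137 and 1979 normalized counts in sh-NC and at 4262, 2630 and 2910 in sh-KLF5. The groups overlapped, with a log2 fold change of 0.27 (95% confidence interval -0.14 to 0.68, limma, adjusted p = 0.404). TEX14, needed for the bridges between germ cells, had 18, 13 and 15 reads against 13, 8 and 12. DDX43, an RNA helicase, had 9, 14 and 14 reads against 19, 14 and 13. Neither passed, with log2 fold changes of -0.45 and 0.31 and wide intervals (-1.35 to 0.45 and -0.59 to 1.21). Other genes on the opposite strand covered 20.2% of the exonic bases of DDX43, among them CGAS with 780 to 995 reads. ACRBP, which binds proacrosin in sperm, had 2, 4 and 2 reads against 5, 2 and 5, and LIN28A, an inhibitor of let-7 maturation, had at most 1 read in a library. SSX2IP, a centrosome and junction protein, stood at 981.4, 927.2 and 881.7 against 940.7, 708.3 and 842.2 normalized counts and did not pass (log2 fold change -0.17, limma, adjusted p = 0.432).

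Per length, 3 members formed a top tier. In RPKM (reads per kilobase of exon, scaled to the library total), the sh-NC level was 27.8 ± 2.88 for MAGED2, 27.5 ± 2.21 for MAGEF1 and 25.4 ± 6.29 for SYCP2 (SD, n = 3 each), and the 3 genes differed by less than their spread. The next level was that of SSX2IP at 6.53 ± 0.44. PRAME at 2.60 ± 0.59 and MAGED1 at 2.28 ± 0.45 differed by less than their spread, and CTAGE4 (1.75 ± 0.15) and TEX15 (1.55 ± 0.70) came next. The median over all tested genes was 4.38. In sh-KLF5 the 3 top genes remained near these levels (29.4, 24.9 and 30.8), whereas PRAME, MAGED1 and TEX15 stood at 0.027, 0.057 and 0.052. In bulk RNA, fewer expressing cells and less RNA per cell cannot be told apart.

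**Figure D3:**
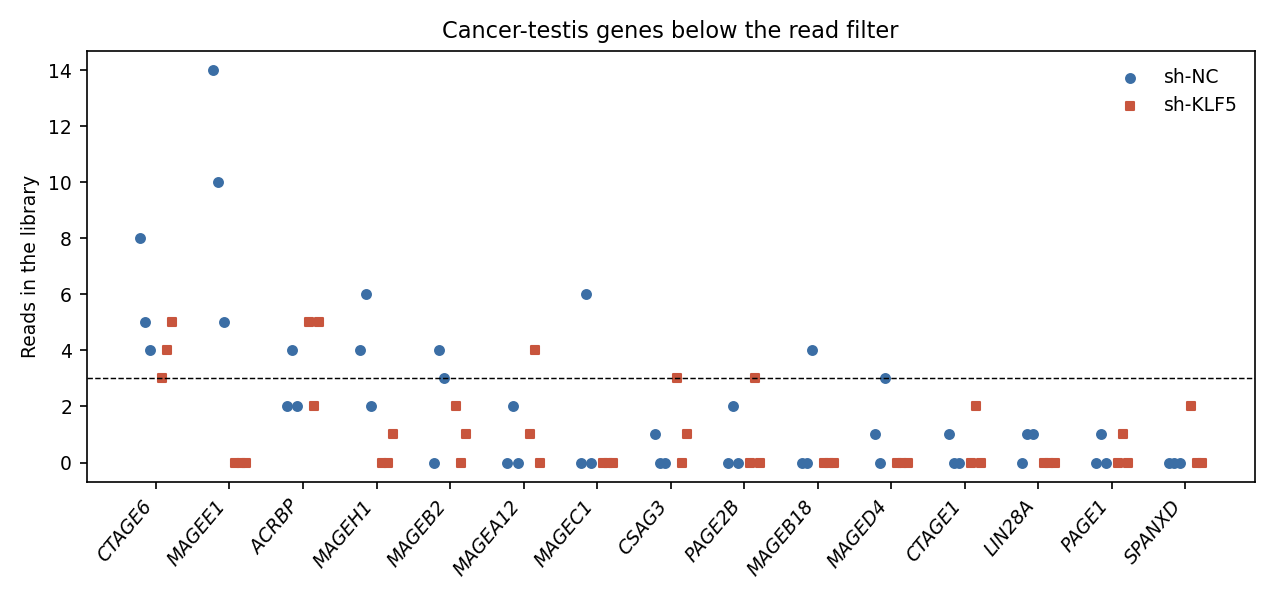
Reads of the 15 members below the read filter in each sh-NC library (circles) and each sh-KLF5 library (squares), ordered by total reads. The dashed line marks 3 reads, the limit that a count of 0 allows, and MAGEE1 shows 14, 10 and 5 reads against 0 in every sh-KLF5 library.

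Most antigens in the narrow sense were near the detection limit in both groups. Of the 15 untested members, 10 had fewer than 10 reads over the 6 libraries and at most 6 in any library, and 8 of these 10 lay on chromosome X. They were MAGEA12, MAGEC1, MAGEB18, MAGED4, CSAG3, PAGE1, PAGE2B, SPANXD, CTAGE1 and LIN28A. At this depth no difference between the groups was detectable for them.

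Since 15 members lie on chromosome X, its other protein-coding genes were counted in the same fit. Of 550 such genes, 421 were tested, 20 (4.75%) were called lower and 5 (1.19%) higher. Over all tested genes these shares were 3.37% and 1.9%, and over all tested protein-coding genes 3.61% and 1.93%. The median log2 fold change of the 421 was 0.01. Of the 4 tested members on X, MAGED1 was lower and MAGEB6 higher, and of the 11 tested members elsewhere PRAME and TEX15 were lower.

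**Figure D4:**
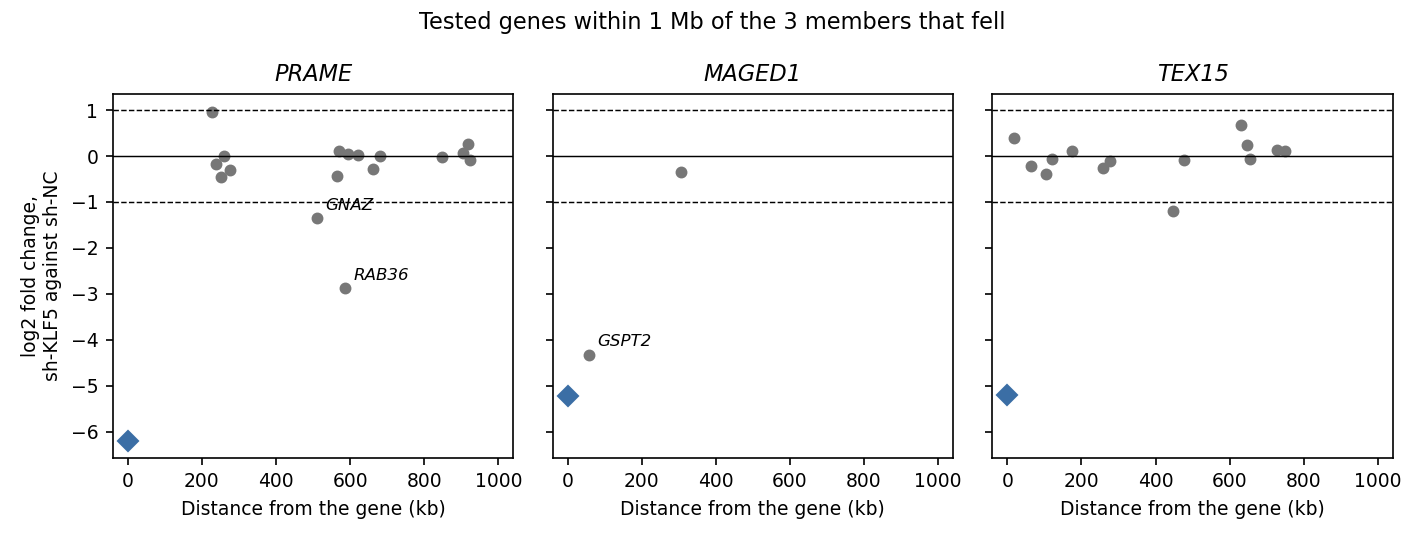
Log2 fold change of every tested gene within 1 Mb of PRAME, MAGED1 and TEX15 (grey points) against its distance in kilobases, with the member itself at distance 0 (diamond). GSPT2 beside MAGED1 and RAB36 and GNAZ near PRAME lie below the threshold of -1 and were called; the TEX15 neighbour below -1 did not pass the test.

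The genes beside the called members were counted within 1 Mb, a window chosen after the values were seen. MAGED1 had 2 tested neighbours. One of them, GSPT2, a retrogene for a translation termination factor that lies 56775 bases away, had 41, 13 and 13 reads in sh-NC and 0 in each sh-KLF5 library. It was called lower (limma, adjusted p = 4.67e-04) and was at least 7.22-fold lower when set against 3 reads per library. This bound rests on the control library with 41 reads, and without it was 4.45-fold. The other, NUDT11, did not pass (log2 fold change -0.35, limma, adjusted p = 0.599). Of 17 tested neighbours of PRAME, RAB36 (log2 fold change -2.88, limma, adjusted p = 0.00164) and GNAZ (-1.35, limma, adjusted p = 0.00191) fell and 15 did not pass. None of the 14 tested neighbours of TEX15, of the 1 of MAGEB6 or of the 2 of MAGEE1 was called. Over all tested genes, 3.37% were called lower and 1.9% higher.

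Of the regulators and partners of the cancer-testis genes, TET1 was the 1 gene called. Among 25 regulators of DNA methylation and chromatin, all tested, 1 (4%) was called lower, close to the 3.37% of all tested genes, and none higher. The groups did not overlap for 11 of the 25, beside 31.3% of all tested genes. TET1, which oxidises methylated cytosine, had 37, 22 and 27 reads in sh-NC and 5, 11 and 13 in sh-KLF5 (log2 fold change -1.53, SE 0.43, limma, adjusted p = 0.0259). Its groups did not overlap. The median of the list was -0.15. TET2 (-0.71), KDM1A (-0.47), HELLS (-0.49) and EZH2 (-0.40) were among those that had an adjusted p under 0.05 but did not reach the fold threshold. Of 18 ligase partners of MAGE proteins and PRAME, 17 were tested and none was called, with a median of 0.07. ELOB, a subunit of the cullin-2 ligase, had the lowest adjusted p of these (log2 fold change 0.46, limma, adjusted p = 0.0120) and did not reach the fold threshold.

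Other germ-line genes and other antigens gave 1 call. Of 34 genes of meiosis and of the piRNA pathway, 24 were measured and 13 tested, and none was called in either direction. SMC1B, the meiotic cohesin subunit, had an adjusted p of 0.0136 from limma with a log2 fold change of 0.55. Of 48 further cancer-testis antigens, 36 were measured and 22 tested, none was called lower, and IL13RA2 (4.55% of the 22) was called higher. Over all tested genes 1.9% were called higher. IL13RA2, a decoy receptor for interleukin 13, had 200, 281 and 301 reads in sh-NC and 1128, 1114 and 1101 in sh-KLF5, with every silenced library above every control (log2 fold change 2.12, SE 0.17, limma, adjusted p = 3.46e-07). The other 21 had log2 fold changes between -0.61 and 0.41. The medians of the lists were -0.18 for meiosis and piRNA genes and -0.10 for further antigens.

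Markers of the labelled cell type and of others were read beside these results. Of 9 epithelial and ovarian carcinoma markers, 8 were measured and all 8 tested. KRT8 (log2 fold change -1.17) and MUC16 (-1.54) were called lower in sh-KLF5, or 25% of the 8, beside 3.37% of all tested genes. KRT7 (-0.78) and KRT18 (-0.64) had adjusted p-values under 0.05 (limma) without reaching the fold threshold. ERBB2 (-0.33), PAX8 (-0.25), EPCAM (-0.03) and KRT19 (1.14) were not called. Of 8 germ cell markers, 2 were measured: POU5F1 at a mean of 118.8 and 98.2 normalized counts and SYCP3 at 11.4 and 8.70, and neither was called. The leukocyte markers PTPRC and LYZ and the endothelial marker CDH5 had at most 3 reads in any library. Among the other leukocyte and endothelial markers, CD14 (187.1 and 305.1 normalized counts) and PECAM1 (70.0 and 47.0) were tested and not called, and VWF was below the filter. Of 4 fibroblast markers, all tested, DCN (log2 fold change -1.82) and COL1A2 (-3.58) were called lower, whereas LUM (-0.45) and COL1A1 (0.30) were not called. The part of these markers in the fall of PRAME, MAGED1 and TEX15 was not tested.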

How the data were processed

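The authors deposited 1 table of normalized counts (a signal: reads per gene divided by 1 factor per library) with gene length, coordinates and their own comparison columns, which were not used. The submitters' processing notes name HISAT2 2.0.5, featureCounts 1.5.0-p3, DESeq2 1.20.0 and hg38, and GENCODE 29 coordinates matched for 100% of genes. Reads were recovered by dividing by the smallest value above 0 (100% whole within 0.001). Library labels gave groups and replicates. The test between groups was that of limma 3.58.1 (R 4.3.3; trend and robust options) on log2(normalized count + 1) after edgeR's filterByExpr (minimum count 10), with Benjamini-Hochberg adjustment over 15803 genes. edgeR 4.0.16 and DESeq2 1.42.0 on recovered reads, other scalings, pseudocounts, filters, a replicate block and leaving out each library were the alternatives. On the recovered reads edgeR called 528 genes lower and 308 higher, against 533 and 301 with limma. Identity between coding sequences came from pairwise alignment of GENCODE 29 coding sequences (biopython 1.88). Scripts were tested on simulated data. Members, gene lists and the 1 Mb window were chosen with earlier results of these data known. Named genes are KLF5, every tested member, untested members with 10 or more reads, called list genes and the genes nearest the fold threshold; all others named were chosen after their values were seen. Protein sequences were not used here. A few list genes are not reported here.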

Additional observations from a re-analysis of the deposited data

How the results depend on the processing

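When every library had to hold 10 reads or more, 7 members were tested, and 0 were called lower and 0 higher, since that filter by its construction removes genes near 0 reads in either group. In the other alternatives run, 3 or 4 members were called lower and 1 higher. PRAME, MAGED1 and MAGEB6 were called in each of these, and TEX15 in all but the fit without a read filter (adjusted p = 0.0777, limma). MAGEE1 was the additional call in edgeR without a filter, an alternative chosen after seeing the data, and in 3 fits without 1 library (sh-KLF5 replicate 1, sh-KLF5 replicate 2 or sh-NC replicate 3), and it took the place of TEX15 in limma without a filter. The direction reversed for CTAGE4 (-0.15 to 0.25) and CTAGE9 (-0.08 to 0.74) when single libraries were left out: CTAGE4 stood at -0.15 without sh-KLF5 replicate 1 and -0.0092 without sh-NC replicate 2, CTAGE9 at -0.053 and -0.081 without sh-KLF5 replicate 1 and sh-NC replicate 1. Neither was called. Without a read filter 32 other protein-coding genes of chromosome X were lower instead of 20, with more genes tested. The ratio of SYCP2 to MAGED2 in sh-NC was 0.915 per kilobase and 2.01 without the length. Replicate numbers did not pair the libraries (correlations 0.0331 to 0.0590), and with a replicate block 3 members were called lower, 1 was called higher and the log2 fold change of KLF5 was -1.53. With 15 members below the filter, depth limits what can be said of most of the type I antigens. Over all genes, 811 were called lower without a read filter and 231 with 10 reads or more in every library, against 533. Fits without a read filter gave adjusted p-values on another scale: for KLF5 2.75e-31 (limma) and 6.66e-29 (edgeR), against 2.47e-07 in the main fit (limma).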
